A study of Mus musculus with 4 samples.

Results

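The ERV1 families of endogenous retroviruses were followed through small RNA libraries of the mouse testis. Members were all names that the deposited annotation table puts in class LTR and superfamily ERV1, except RLTR30B_MM, with reads of 25 to 31 nt, the lengths of piRNAs. Each distinct sequence was given the name under which it had most reads over the libraries and was counted once in each library. This gave 114 ERV1 families of 842 transposon families with reads of these lengths (LTR, LINE and SINE together), beside 500 other LTR families. Testes of 16-day-old mice were sampled in 2 groups, Hsf5 knockdown (2 libraries) and wild type (2 libraries), called biological replicates in the labels. The labels do not state how Hsf5 was knocked down, the strain, or whether a library came from 1 animal. Library names inside the data file call this group a knockout ("KO"); it is called a knockdown here, after the sample labels. Hsf5 encodes heat shock factor 5, a transcription factor of meiotic male germ cells, and small RNA libraries do not measure its messenger RNA, so the degree of knockdown was not checked. The comparison asks how piRNA levels change in spermatogenesis when Hsf5 is reduced.

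ERV1 elements are remnants of retroviruses related to the gammaretroviruses, the genus of murine leukaemia virus. An element is made of an internal part, which carried the viral genes and is marked "-int" or "_I" in its name, and of long terminal repeats (LTRs) at both ends, which hold its promoter; single LTRs are what most copies have become. piRNAs are small RNAs bound by PIWI proteins: they begin mostly with U, and many in the meiotic testis are cut from long single-stranded transcripts of piRNA loci, inside which transposon copies lie in either orientation. Where a piRNA guides the cutting of a complementary transcript, the new 5′ end lies across from the bond between its bases 10 and 11, so that both piRNAs overlap by their first 10 bases and the partner of a piRNA with U at its first base carries A at base 10. This exchange is called the ping-pong cycle.

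The most abundant sequence of each of the 6 leading families is printed to show what an ERV1 piRNA is in these libraries. The first base and base 10, the positions described in the results, are in capitals, and T stands for U as in the table.
RLTR24: TaactacaaAcgtttctgcagagcctgc
MLTR14: TagaagtcaAagcttggttcctggc
MER90a: TgggatttcTttgaacctgatactgagagg
LTRIS4: TgagaactgGctgaccacaaaagtt
RMER21B: TatgatgttTgctgcctgatgtgactc
LTR68: TgcataattCgtgggcattcagatc
Each of the 6 began with T and had 1 exact place in GRCm39 (the build called mm39 elsewhere), inside a piRNA locus. The RLTR24 sequence lay at chr17:27557985-27558012 on the plus strand, in an intron of the long non-coding RNA gene Gm10505, and the MLTR14 sequence at chr17:27542960-27542984 on the minus strand. The MER90a sequence lay at chr2:92409212-92409241, plus strand, and the LTRIS4 sequence at chr14:24143817-24143841, plus strand, in an intron of Gm52992. The RMER21B sequence lay at chr10:84324227-84324253, plus strand, in an exon of 4930463O16Rik, and the LTR68 sequence at chr10:62521404-62521428, plus strand. In the MLTR14, MER90a and LTR68 places no gene is annotated on that strand. The RLTR24 sequence had 313 and 314 RPM in the knockdown and 339 and 255 RPM in the wild type, and the MER90a sequence 23.9 and 183 RPM in the knockdown and 41.6 and 71.7 RPM in the wild type. Single 5′ ends carried much of some families: reads that shared their first 20 bases with the sequence shown were 68.1% of MER90a reads, 51.6% of LTRIS4, 38.8% of LTR68 and 28.3% of RLTR24 reads, but 14.5% of MLTR14 and 12.8% of RMER21B reads.

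The libraries held 9619666 and 10900306 counted reads in Hsf5 knockdown replicates 1 and 2, and 11117460 and 9260452 in wild-type replicates 1 and 2. Of these, 4352106 and 7025053 reads of the knockdown and 5745703 and 5326809 of the wild type were 25 to 31 nt long. Knockdown replicate 1 stood apart in its read lengths, given below, and in its loci. There ERV1 reads were below 5% of the lowest other library in 22 of 135 piRNA loci that held any, among them 3 of the 18 loci where every other library had at least 10 RPM (reads per 1000000 counted reads). Summed over these 22 loci ERV1 had 0.832 and 178 RPM in the knockdown and 99.9 and 182 RPM in the wild type. The 3, given by place below, were at 7-qD2, 5-qG3 and 4-qB3. Reads of 25 to 31 nt that the annotation names after these 3 loci were low in the same library. They had 2.08, 79.4 and 6.34 RPM in knockdown replicate 1. In wild-type replicate 1, the lowest other library, they had 6630, 5603 and 403 RPM. Others of the 22 held few ERV1 reads, pi-Ccdc117 only 3 in all. The related miRNAs miR-34c, miR-34b and miR-449a, known from spermatocytes, were present in all 4 libraries. miR-34b and miR-449a ranked the libraries in the same order, and miR-34c in another. miR-34c had 1265 and 1207 RPM in the knockdown and 864 and 1202 RPM in the wild type. miR-34b had 417 and 93.8 RPM in the knockdown and 251 and 356 RPM in the wild type, and miR-449a 54.3 and 14.3 RPM in the knockdown and 27.0 and 40.2 RPM in the wild type, both lowest in knockdown replicate 2. Results are therefore given per library, and with each library left out where that changes a direction. All groups compared have 2 libraries, so an exact two-sided permutation test over 6 assignments cannot give a p below 0.333, and p-values measure only the spread between these libraries.

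ERV1 reads of piRNA length were somewhat more frequent in the knockdown libraries, and the groups did not overlap. They numbered 70573 and 86177 in the knockdown and 68951 and 64361 in the wild type, or 7336 and 7906 RPM in the knockdown against 6202 and 6950 RPM in the wild type. The means were 7621 ± 403 RPM in the knockdown and 6576 ± 529 RPM in the wild type (SD, n = 2 each; exact permutation p = 0.333, the smallest possible). As a share of all 25 to 31 nt reads ERV1 took 1.62% and 1.23% in the knockdown and 1.20% and 1.21% in the wild type, so here knockdown replicate 2 lay close to the wild type. Per 1000000 mature miRNA reads the libraries overlapped, with 36132 and 46486 in the knockdown and 34418 and 46062 in the wild type (exact permutation p = 0.667). The RNA came from testis tissue with its mixture of cells, so a change in the number of cells of a type and a change in small RNA per cell cannot be told apart. RLTR30B_MM, which is not counted among the 114, had 2.49 and 267 RPM in the knockdown and 139 and 234 RPM in the wild type.

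A few families carried nearly all ERV1 reads. RLTR24 alone took 49.1% on average, the 3 most abundant families 65.1%, and the 12 most abundant 86.3%. At the other end 28 families had under 20 reads in all libraries together, and 37 had a mean below 1 RPM; 60 families had at least 100 reads, and 98 had reads in every library. RLTR24 had 4288 and 2872 RPM in the knockdown and 3475 and 3157 RPM in the wild type, with the knockdown libraries on both sides of the wild type (3580 ± 1001 RPM in the knockdown and 3316 ± 225 RPM in the wild type; SD, n = 2 each). MLTR14, the next, had 887 and 922 RPM in the knockdown and 665 and 839 RPM in the wild type, higher in both knockdown libraries. LTRIS4, an LTR of the murine retrovirus-related sequences (MuRRS), had 306 and 446 RPM in the knockdown and 190 and 353 RPM in the wild type, and RMER21B had 261 and 360 RPM in the knockdown and 172 and 271 RPM in the wild type. In both of these the groups overlapped, with wild-type replicate 1 lowest. Some families stood out in 1 knockdown library: MER90a had 166 and 671 RPM in the knockdown and 170 and 290 RPM in the wild type, and LTR68 had 105 and 335 RPM in the knockdown and 92.5 and 172 RPM in the wild type. The reverse held for RLTR14, with 36.2 and 189 RPM in the knockdown and 101 and 151 RPM in the wild type, so that knockdown replicate 1 was the lowest library.

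**Figure D1:**
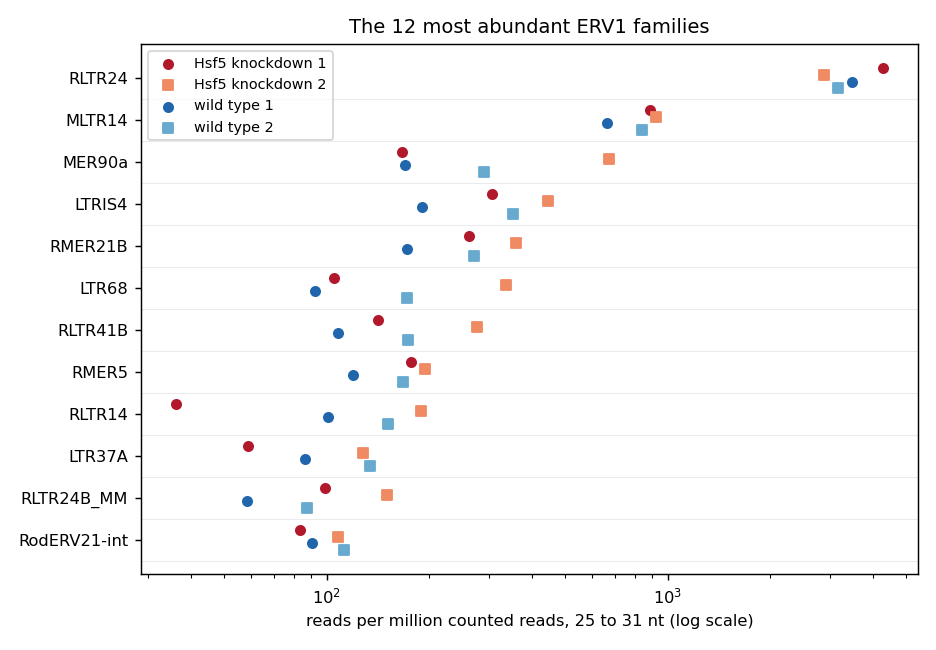
Level of the 12 most abundant ERV1 families (rows) in RPM on a log axis, 1 point per library, with Hsf5 knockdown libraries in red and orange and wild-type libraries in blue. RLTR24 lies between 2872 and 4288 RPM, and in RLTR14 knockdown replicate 1 stands at 36.2 RPM, below the 101 and 151 RPM of the wild type.

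ERV1 reads came in the main from single copies inside piRNA loci. Of ERV1 reads, 80.8% and 79.2% in the knockdown and 78.1% and 79.0% in the wild type had exactly 1 place in the genome. Of these placed reads, 95.4% and 94.7% in the knockdown and 94.6% and 95.4% in the wild type lay within the bounds of the piRNA loci named in the deposited table, and at least 99.7% of those in every library were on the main strand of their locus. The share inside loci was higher than that of the other LTR superfamilies, where it was 85.9% and 86.5% in the knockdown and 83.8% and 89.0% in the wild type. The mean difference was 8.75 points, in the same direction in 4 of 4 libraries (exact two-sided sign-flip permutation p = 0.125, the smallest that 16 assignments allow; chosen after the placed reads had been seen). A further 7.36% and 8.34% of ERV1 reads in the knockdown and 8.26% and 8.12% in the wild type had 2 or more places, and the remainder had no exact place. Only some families were tied to 1 locus. Of the 60 families with at least 100 reads, 20 had more than 50% of their reads in 1 locus. Of the same 60, 16 had more than 50% of their reads at several places.

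The divergent pair of piRNA loci at 17-qA3.3 held the largest share. Its plus-strand arm (chr17:27544171-27586457), gave 2591 and 1594 ERV1 RPM in the knockdown and 2032 and 1747 RPM in the wild type, of which 96.1% were RLTR24. Its minus-strand arm (chr17:27507250-27544002), gave 1265 and 834 RPM in the knockdown and 995 and 920 RPM in the wild type. In both arms knockdown replicate 1 was the highest library and knockdown replicate 2 the lowest. Together they held 52.5% and 30.7% of ERV1 reads in the knockdown and 48.8% and 38.4% in the wild type. Outside the pair the ERV1 level was 3481 and 5478 RPM in the knockdown and 3175 and 4283 RPM in the wild type, so the order of the knockdown libraries turned round (exact permutation p = 0.667).

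The next loci were each led by another family. The locus at 2-qE1 (chr2:92371487-92439489, plus strand) gave 436 and 995 ERV1 RPM in the knockdown and 363 and 589 RPM in the wild type, with MER90a at 46.3% of them. The locus at 10-qC1 (chr10:75673358-75700004), led by RLTR41B, gave 309 and 435 RPM in the knockdown and 204 and 329 RPM in the wild type, and 14-qA3 (chr14:24132062-24180159), with 90.3% LTRIS4, gave 282 and 407 RPM in the knockdown and 168 and 306 RPM in the wild type. In all 3 the wild type replicate 1 was lowest and knockdown replicate 2 highest. The locus at 10-qB4 (chr10:62487472-62542110), with 99.2% LTR68, had 97.3 and 266 RPM in the knockdown and 68.9 and 133 RPM in the wild type. Some loci were low in knockdown replicate 1, under different leading families. At 4-qB3 (chr4:57356531-57364266), led by LTR68, ERV1 had 0.624 and 38.7 RPM in the knockdown and 13.8 and 30.5 RPM in the wild type. RLTR14 or RLTR14_RN led in the loci given next. The locus at 6-qF3 (chr6:127773394-127818853), led by RLTR14_RN, gave 23.3 and 201 RPM in the knockdown and 102 and 172 RPM in the wild type. The locus at 7-qD2 (chr7:73423665-73466217) gave 0 and 56.1 RPM in the knockdown and 42.5 and 74.2 RPM in the wild type, and 5-qG3 (chr5:149713537-149755054) gave 0 and 43.2 RPM in the knockdown and 20.4 and 34.4 RPM in the wild type. A count of 0 in knockdown replicate 1 allows up to 0.312 RPM, that is 3 counts. The 10 leading loci held 69.2% of all ERV1 reads on average.

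**Figure D2:**
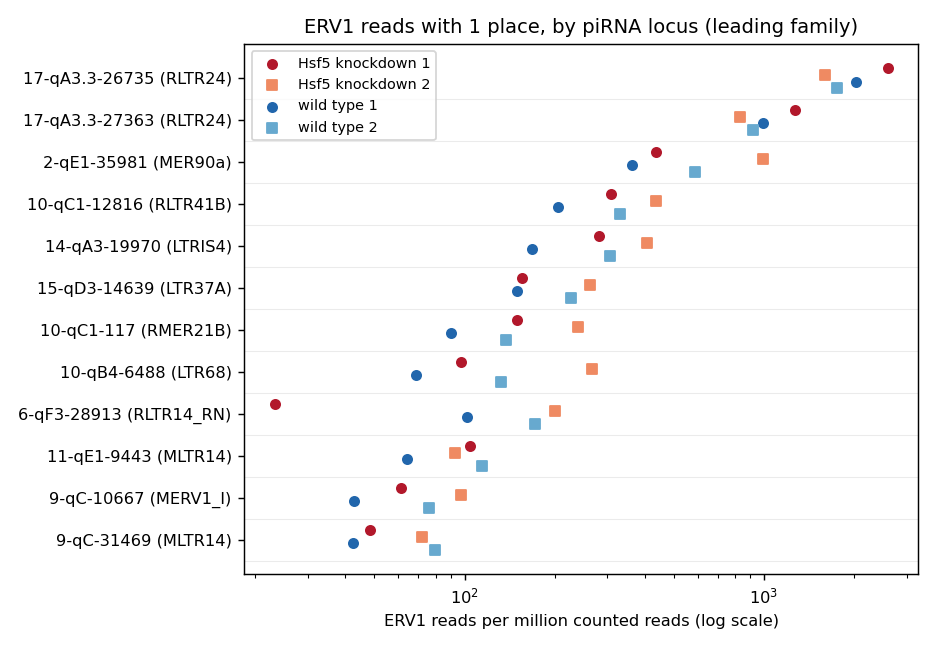
ERV1 reads with 1 exact place (RPM, log axis) in the 12 piRNA loci that held most of them, with the leading family in brackets and 1 point per library. Knockdown replicate 1 is the highest library in both 17-qA3.3 arms and stands at 23.3 RPM at 6-qF3, where the others have 102 to 201 RPM.

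Within the loci the reads gathered on short stretches. An RLTR24 stretch of 1002 bases at chr17:27557403-27558404, plus strand, overlapping an exon of Gm10505, held 26.8% of all ERV1 reads, with 2479 and 1517 RPM in the knockdown and 1969 and 1675 RPM in the wild type. A second RLTR24 stretch, of 552 bases on the minus strand at chr17:27511100-27511651, held 8.59%, with 804 and 405 RPM in the knockdown and 665 and 579 RPM in the wild type. The MER90a stretch at chr2:92409043-92409262 held 84.1% of that family's reads, and the LTRIS4 stretch at chr14:24143752-24144175 held 81.2% of that family's. The 10 leading stretches of 3111 held 57.4% of ERV1 reads.

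The length of ERV1 reads varied most within the knockdown group. Reads of 29 to 31 nt, the sizes bound mainly by MIWI, made up 21.3% and 36.7% in the knockdown and 33.8% and 33.4% in the wild type; the rest, of 25 to 28 nt, are the sizes bound mainly by MILI. The knockdown libraries lay on either side of the wild type (29.01% ± 10.9 in the knockdown and 33.6% ± 0.299 in the wild type; SD, n = 2 each; exact permutation p = 1). The difference of the means was -4.60 points. It became 3.09 points when knockdown replicate 1 was left out and -12.3 points when knockdown replicate 2 was left out. The most frequent length was 26 and 27 nt in the knockdown and 27 and 26 nt in the wild type. Over all 25 to 31 nt reads of every class the long share was 18.2% and 37.6% in the knockdown and 33.0% and 31.8% in the wild type, so the library with few long ERV1 reads had few long reads in general. Families differed widely in reads: the mean share of long reads over the 4 libraries was 61.3% in MER90a, 43.0% in LTR68, 34.6% in RLTR24, 19.7% in LTRIS4, 9.79% in RMER5 and 0.521% in RLTR24B_MM. With each distinct sequence counted once they differed less. The shares were then 45.6%, 42.4%, 39.1%, 36.7%, 23.8% and 24.5% in the same order. In RLTR24B_MM a single sequence gave 47.4% of the reads. Wilson 95% intervals of such shares over all ERV1 reads of a library reach no more than 0.382 points above or below the share. These intervals, and the limit for a count of 0, cover counting error only, because reads copied by PCR do not count separate molecules.

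**Figure D3:**
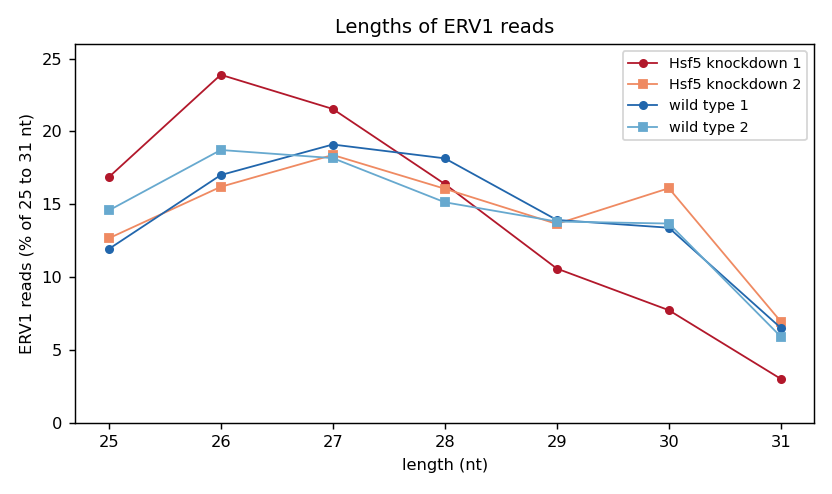
Share of ERV1 reads by length, in percent of the ERV1 reads of 25 to 31 nt, 1 line per library. The line of knockdown replicate 1 peaks at 26 nt (23.9%) and is at 3.01% at 31 nt, where knockdown replicate 2 has 6.95% and the wild-type libraries 6.51% and 5.91%.

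ERV1 reads began with U in 89.3% and 92.2% of cases in the knockdown and 87.3% and 89.1% in the wild type. Knockdown libraries were both above the wild type, by a mean of 2.52 points (90.7% ± 2.03 in the knockdown and 88.2% ± 1.29 in the wild type; SD, n = 2 each; exact permutation p = 0.333). With each distinct sequence counted once the shares were 77.4% and 80.9% in the knockdown and 77.0% and 79.2% in the wild type, and the groups overlapped. Against the other LTR superfamilies, whose reads began with U in 85.1% and 86.8% of cases in the knockdown and 83.7% and 84.8% in the wild type, the ERV1 share was higher in 4 of 4 libraries. The mean difference was 4.39 points (exact two-sided sign-flip permutation p = 0.125, 0.188 after Benjamini-Hochberg adjustment over 3 measures). Counting distinct sequences the difference was 4.60 points. The difference in reads varied with genome place. Among reads with 1 place in a piRNA locus, ERV1 had 90.8% and 93.2% in the knockdown and 89.7% and 90.7% in the wild type. Other LTR superfamilies there had 90.1% and 90.96% in the knockdown and 89.8% and 89.6% in the wild type. With several places ERV1 was higher in knockdown replicate 2 only. With 1 place outside the loci, or no exact place, ERV1 was higher in every library. The pooled share of U starts was 77.9% and 86.9% in the knockdown and 70.6% and 83.5% in the wild type over the 23 internal parts, against 88.8% and 91.5% in the knockdown and 87.5% and 88.2% in the wild type over the 31 LTRs whose names begin with RLTR. RLTR1B-int, with 1334 reads in all, began with U in 53.6% of reads as a mean over the 4 libraries, and MMVL30-int, with 2845, in 66.5%. Other internal parts were close to the LTRs, with means of 88.0% in RodERV21-int, 88.4% in RLTR14-int, 89.8% in MERV1_I and 86.0% in MuRRS-int. The difference between internal parts and LTRs was not tested.

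Base 10 was A in 44.4% and 39.1% of ERV1 reads in the knockdown and in 47.3% and 42.2% in the wild type, with overlapping groups (exact permutation p = 0.667). Other LTR superfamilies had A there in 28.7% and 31.99% of reads in the knockdown and 32.8% and 32.6% in the wild type. The difference had a mean of 11.7 points and the same direction in 4 of 4 libraries (exact two-sided sign-flip permutation p = 0.125, 0.188 after Benjamini-Hochberg adjustment over 3 measures). It was not seen when each distinct sequence was counted once: A then stood at base 10 in 30.9% and 30.7% of ERV1 sequences in the knockdown and 30.1% and 30.8% in the wild type, lower than in the other LTR superfamilies by 1.95 points. With the reads placed in the 17-qA3.3 pair left out of both sides the difference was -0.519 points, with 2 libraries above 0 and 2 below. With the reads placed in any piRNA locus left out, the pair included, it was 8.57 points and above 0 in 4 of 4 libraries. Without RLTR24 base 10 was A in 26.3% and 24.9% of ERV1 reads in the knockdown and 26.4% and 26.1% in the wild type. Among the leading families the mean share of reads over the 4 libraries was 61.6% in RLTR24 and 42.7% in MLTR14, but 37.2% in LTR68, 15.6% in LTRIS4, 5.21% in MER90a and 1.08% in LTR37A. Over distinct sequences the shares of these families lay closer together. They were 38.9%, 30.9%, 37.4%, 26.7%, 20.8% and 10.9% in the same order. The minus-strand RLTR24 stretch at 17-qA3.3 had A at base 10 in 79.9% of its reads and U first in 78.5%.

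RLTR24 reads formed complementary pairs overlapping by their first 10 bases. For each ERV1 read it was asked whether the library held another ERV1 read whose first bases were its reverse complement, wherever both came from; 1 read was enough. Over exactly 10 bases a partner existed for 52.9% and 62.7% of RLTR24 reads in the knockdown and 66.995% and 60.0% in the wild type. Over 9 bases it existed for 38.9% and 44.5% in the knockdown and 47.5% and 40.6% in the wild type, and over 12 bases for 8.71% and 12.4% in the knockdown and 15.9% and 8.20% in the wild type. Over 11 bases the shares were 16.2% and 50.9% in the knockdown and 47.6% and 18.2% in the wild type. Among these lengths the share was highest at 10 in every library. In all other ERV1 families together a partner over 10 bases existed for 4.10% and 9.73% of reads in the knockdown and 6.34% and 7.96% in the wild type. The knockdown and wild-type libraries overlapped in both sets (exact permutation p = 0.667 for RLTR24 and p = 1 for the other families).

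**Figure D4:**
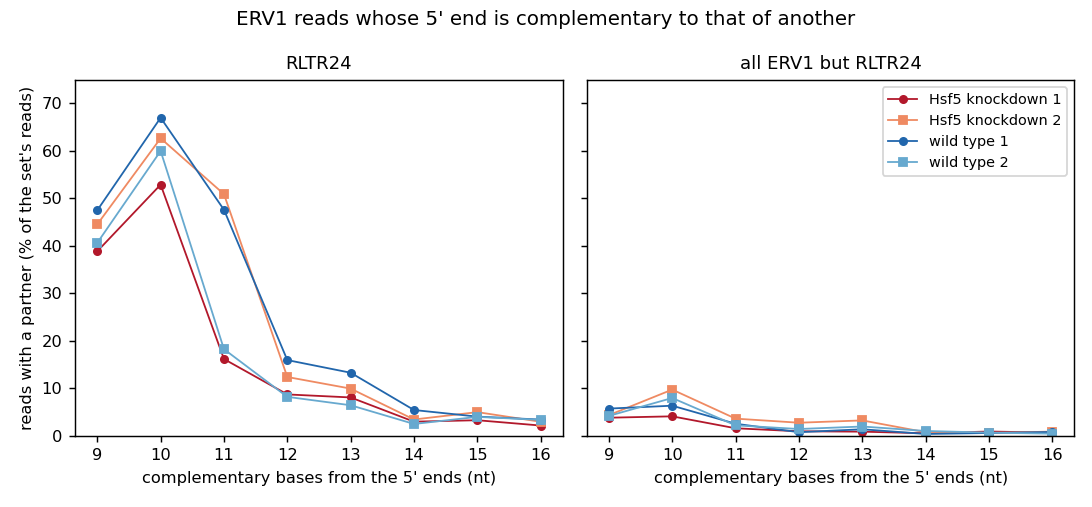
Share of reads (percent of the reads of the set, 1 line per library) that had at least 1 partner with complementary first bases, by the number of bases compared, for RLTR24 (left) and for all other ERV1 families (right). RLTR24 lines peak at 10 nt between 52.9% and 66.995%, and the other families reach at most 9.73% there.

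The leading RLTR24 sequence stood in the strongest of these pairs. Reads beginning with its first 10 bases numbered 10083 and 11427 in the knockdown and 10992 and 8105 in the wild type, or 1048 and 1048 RPM against 989 and 875 RPM. Reads beginning with the reverse complement numbered 688 and 404 in the knockdown and 610 and 434 in the wild type, or 71.5 and 37.1 RPM against 54.9 and 46.9 RPM. Both kinds together were 15.3% and 13.7% of ERV1 reads in the knockdown and 16.8% and 13.3% in the wild type. They made up 78.7% and 87.8% of all 10 nt pairs of ERV1 reads in the knockdown and 78.7% and 77.5% in the wild type. The most abundant sequence at each end of the strongest pair (A and B) and of the next by pairs of reads summed over the libraries (C and D) is printed below, again with the first base and base 10 in capitals; the first 10 bases of B are the reverse complement of those of A, and those of D the reverse complement of those of C.
A, RLTR24: TaactacaaAcgtttctgcagagcctgc
B, RLTR24: TttgtagttAaggttacaggtggggcc
C, RLTR24: TtcagaacaAaggtacggttgcaagatggt
D, RLTR24: TtgttctgaAaggttatgtgaccacc
All 4 have T first and A at base 10. Where both ends of such a pair begin with T, A at base 10 follows from the complementary bases. Of the reads with the 5′ end of A, 81.5% had their 1 place in the plus-strand arm of 17-qA3.3. Of those with the 5′ end of B, 88.9% had several places and 0.281% had 1; sequence B itself had 5 places, 1 of them at chr17:27511206-27511232 in the minus-strand arm of 17-qA3.3. There the genome could pair with 26 of the 28 bases of A, against 15 to 24 bases at the other 4 places. In knockdown replicate 2 and wild-type replicate 2 another pair had more pairs of reads than C and D. Its ends differed from those printed: the more abundant has T first and T at base 10. The less abundant has A first and A at base 10. Sequences C and D each had a single place: C lay at chr17:27511295-27511324 on the minus strand and D at chr17:27558077-27558102 on the plus strand. The genome at D could pair with 29 of the 30 bases of C. Reads with the 5′ end of C had 136 and 70.1 RPM in the knockdown and 142 and 102 RPM in the wild type, and those with the 5′ end of D 54.6 and 16.7 RPM in the knockdown and 48.0 and 33.0 RPM in the wild type, lowest in knockdown replicate 2 at both ends.

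The 2 RLTR24 stretches at 17-qA3.3 are complementary as transcribed. Aligned as RNA against the reverse complement of the other, they were identical at 348 of 459 aligned positions (75.8%), while aligned in the same orientation the best match covered 38 positions. RLTR24 reads of the plus-strand arm and of the minus-strand arm are thus of opposite sense, although nearly all ERV1 reads of each locus lie on its main strand. Overlaps were also counted for reads on opposite strands of their own genome place. The Z score of 10 nt overlaps, set against overlaps of 1 to 9 and 11 to 20 nt, was 9.37 and 9.53 in the knockdown and 13.2 and 17.9 in the wild type, lower in both knockdown libraries (exact permutation p = 0.333). Among reads with 1 place, a single position gave 43.7% and 22.2% of the 10 nt overlaps in the knockdown and 49.1% and 32.1% in the wild type; there 5 and 3 plus-strand reads in the knockdown and 6 and 4 in the wild type faced 1186 and 698 minus-strand reads in the knockdown and 1476 and 863 in the wild type. With distinct sequences the Z score was 6.79 and 7.18 in the knockdown and 7.81 and 10.02 in the wild type.

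Between the groups no ERV1 family passed the test. The edgeR quasi-likelihood fit over all transposon families tested 793, of which 102 were ERV1, and called 0 of the ERV1 families at a Benjamini-Hochberg adjusted p of 0.05, against 0% of all families. At an unadjusted p under 0.05 it had 3 ERV1 families higher in the knockdown and 0 lower, beside 1.26% of all families higher and 0.757% lower. DESeq2 also called 0 after adjustment. Unadjusted it had 1 ERV1 family higher and 0 lower, beside 4 higher and 5 lower of all 793 families. Of the 102, 57 had a positive log2 ratio of knockdown over wild type and 45 a negative one, with a median of 0.11, and the median of all families was -0.01. Scaled by mature miRNA reads, 49 of 103 were positive and 54 negative. Their median was then -0.08, and that of all families -0.18. Of the 60 ERV1 families with at least 100 reads, 15 (25%) had both knockdown libraries above both wild-type libraries in RPM, beside 9.72% of all families with that many reads, and 5 (8.33%) had both below, beside 8.51%. The counts depend on the scaling: per 1000000 mature miRNA reads 5 (8.33%) were above, beside 2.26% of all families, and 5 (8.33%) were below, beside 13.2%. Families share libraries and loci, and these counts are descriptions.

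The families with the lowest unadjusted p were of low or middle abundance. MER57D had 7.59 and 13.1 RPM in the knockdown and 4.41 and 6.16 RPM in the wild type, a log2 ratio of 0.99 ± 0.41 (SE; edgeR unadjusted p = 0.0310, adjusted p = 0.996). RLTR6B_Mm, an LTR of VL30 elements, had 26.7 and 23.4 RPM in the knockdown and 9.08 and 17.8 RPM in the wild type, a log2 ratio of 1.02 ± 0.43 (SE; edgeR unadjusted p = 0.0344, adjusted p = 0.996). RLTR48A had 58.9 and 52.7 RPM in the knockdown and 22.0 and 37.9 RPM in the wild type, with a log2 ratio of 1.01 ± 0.46 (SE). In these 3 the libraries of the groups did not overlap, but they were picked by low p in these same libraries, and none passed. On the lower side MMERGLN-int, the internal part of the GLN retrovirus, had 0.416 and 2.39 RPM in the knockdown and 5.22 and 2.05 RPM in the wild type (log2 ratio -1.47 ± 0.75, SE). RLTR1B-int had 26.1 and 21.5 RPM in the knockdown and 48.1 and 33.9 RPM in the wild type (log2 ratio -0.71 ± 0.46, SE), and MURVY-int, the internal part of a retrovirus amplified on the Y chromosome, had 3.01 and 3.49 RPM in the knockdown and 5.49 and 5.08 RPM in the wild type (log2 ratio -0.66 ± 0.50, SE). MMERGLN-int overlapped between the groups, and the other 2 did not. Among the 12 most abundant families the log2 ratio ran from -0.26 ± 0.57 (SE) in RLTR14 to 0.81 ± 0.42 (SE) in RLTR24B_MM, and that of RLTR24 was 0.23 ± 0.40 (SE), with 9 of the 12 positive. With knockdown replicate 2 left out, the edgeR fit called 5 ERV1 families lower (MER101B, LTR72_RN, MMERGLN-int, RLTR14_RN and RLTR14-int) and 5 higher (RLTR6B_Mm, RLTR48A, MER92-int, MuRRS4-int and RLTR41C), beside 6.79% of all families tested. It called 0 ERV1 families without any other library, where at most 1.03% of all families were called. The fit without knockdown replicate 2 assumes that the lone knockdown library varies like the wild type.

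**Figure D5:**
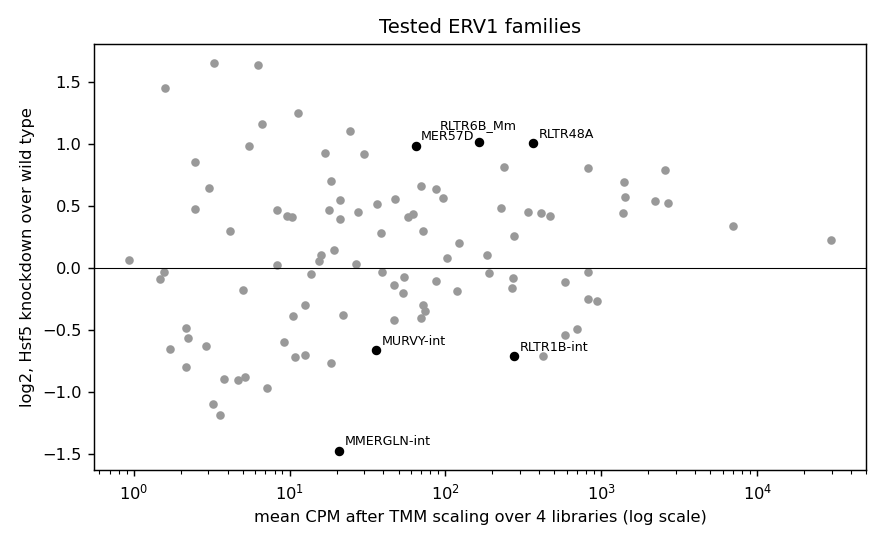
Difference between the groups for the 102 tested ERV1 families: mean level (CPM, counts per 1000000 reads of the transposon families, after TMM scaling, log axis) against the log2 ratio of Hsf5 knockdown over wild type, with the 3 families of lowest unadjusted p in each direction in black. RLTR24 is the point farthest to the right, at 0.23, and no point passed the adjusted threshold.

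The groups named for retroviruses gave little of the ERV1 signal. They differed in how many of their reads had several places. The murine leukaemia virus relatives (MuLV-int and RLTR4_Mm) had 31.2 and 38.99 RPM in the knockdown and 28.4 and 32.1 RPM in the wild type, with 88.7% and 89.2% of the reads in the knockdown and 89.9% and 91.9% in the wild type having several places. Of these 2 families 1 was tested and 0 called. The 5 families of VL30, a retrotransposon that keeps no viral genes of its own, had 119 and 141 RPM in the knockdown and 131 and 105 RPM in the wild type; all 5 were tested, 4 had a positive log2 ratio and 0 were called, with a median of 0.56. The 4 GLN families had 41.1 and 38.6 RPM in the knockdown and 63.2 and 47.1 RPM in the wild type, both knockdown libraries lower (exact permutation p = 0.333), and 0 of 4 were called. The members were split, with 2 positive and 2 negative log2 ratios. RLTR1B had 13.3 and 13.2 RPM in the knockdown and 8.73 and 10.2 RPM in the wild type, higher in both knockdown libraries, whereas RLTR1B-int was lower in both. Of GLN reads 40.5% and 75.1% in the knockdown and 30.7% and 45.2% in the wild type had several places. Their reads began with U in only 55.2% and 83.1% of cases in the knockdown and 38.3% and 62.6% in the wild type. The 11 MuRRS families, LTRIS4 included, had 421 and 665 RPM in the knockdown and 332 and 520 RPM in the wild type, and of the 10 tested 5 were positive, 5 negative and 0 called. Several places were found for 26.1% and 27.2% of MuRRS reads in the knockdown and 36.1% and 27.8% in the wild type. In piRNA loci lay 62.7% and 59.1% of MuRRS reads in the knockdown and 51.5% and 57.6% in the wild type, but at most 0.337% of the murine leukaemia virus relatives' reads and 2.85% of GLN reads in any library. LTRIS4 gave most MuRRS reads (13186), with 81.2% of its reads in piRNA loci and 9.08% at several places. In the other MuRRS families the share in loci ran from 0% in LTRIS3 to 49.5% in LTRIS4A. Their share at several places ran from 40.4% in LTRIS4A to 91.7% in LTRIS6, which had only 12 reads.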

How the data were processed

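Small RNA libraries of total RNA from testis were made by adaptor ligation and size selection of inserts, per the labels. The submitters' processing notes name cutadapt and mm39; the aligner is not given in the sources used here. Per the file, the authors' table gives raw read counts, not normalized, per sequence, library and annotation, and a deposited ratio, a scaling factor equal to 1000000 over the mature miRNA reads. Of 6208912 pairs of sequence and library, 927801 stood on several lines and each was counted once. Members, lists and named-family rule were chosen with earlier results of these data known. Named were the 12 most abundant families, the 3 of lowest p in each direction and 4 lists (murine leukaemia virus relatives, without RLTR41 and RLTR48, which only share letters with RLTR4; VL30; GLN; MuRRS).

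Sequences were matched exactly to GRCm39 and annotated with GENCODE M39. Locus bounds came from the deposited names. Up to 300 of the most abundant sequences named after each locus were matched, and 58380 of them had 1 place. Of these 100% lay inside the bounds written in their own names, which checks the genome build only. Placed sequences of 1 family and strand less than 500 bases apart formed a stretch. Families were tested with edgeR 4.0.16 (quasi-likelihood, robust, TMM; at least 1 CPM in 2 libraries; Benjamini-Hochberg), with DESeq2 1.42.0 as an alternative. The table held no DNA class, so the fit covered LTR, LINE and SINE. On simulated counts the fit was required to recover changed families only at a spread smaller than that of these libraries. Their common coefficient of variation between replicates was 0.389. That check does not tell how many real changes the fit would miss here. Counts of replicates differed beyond sampling noise (chi-square per degree of freedom 217 in the knockdown and 85.2 in the wild type). Total counts of 9260452 to 11117460 set the limit that a count of 0 allows at 0.270 to 0.324 RPM.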

Additional observations from a re-analysis of the deposited data

How the results depend on the processing

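The ERV1 level kept its direction under miRNA scaling, deposited names, RLTR30B_MM added and 24 to 32 nt. With a library left out it was 671 to 1419 RPM higher in the knockdown. Without the reads placed in piRNA loci the difference was 162 RPM. The groups then overlapped, with 1682 and 1975 RPM in the knockdown and 1618 and 1714 RPM in the wild type (exact permutation p = 0.667). Counted as distinct sequences (per 1000000 reads) the difference was -7.12. Base 10 A in distinct sequences turned to 0.355 points. The share of 29 to 31 nt ranged from -12.3 to 3.09 points with a library left out. Against other LTR superfamilies, distinct sequences gave -1.82 points for 29 to 31 nt and -1.95 points for base 10 A, leaving out the 17-qA3.3 reads gave -0.519 points for base 10 A (8.57 points with all reads placed in piRNA loci left out), and leaving out a library moved the 29 to 31 nt difference between -0.635 and 0.865 points. The number of ERV1 families called was 0 in 8 alternatives with 4 libraries, and 0 to 10 with a library left out, the 10 without knockdown replicate 2, where 6.79% of all families were called. miRNA scaling moved the median log2 ratio of all families to -0.18 and gave RLTR24 -0.0812 and RLTR6_Mm -0.0518; 22 of 34 named families kept their direction in all alternatives. With a library left out the log2 ratio ranged from -0.436 to 0.690 in RLTR24, -0.122 to 1.35 in MER90a, -1.45 to 0.383 in RLTR14, -0.563 to 0.0177 in LTR37A, -0.117 to 0.0521 in RodERV21-int, -0.553 to 1.32 in LTRIS4A, -0.896 to 0.557 in LTRIS4B, -4.74 to 0.184 in LTRIS6, -0.455 to 0.0825 in LTRIS_Mm, -0.333 to 0.210 in LTRIS_Mus and -0.519 to 0.457 in MMVL30-int. The cause was not tested. Deviations of equal replicate numbers correlated at 0.24 over all families and 0.122 over ERV1, from 2 pairs only; with the replicate block 0 ERV1 families were called, and the difference in ERV1 level was 1045 RPM as before. Library number and depth limit rare families.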
